A study of Mus musculus with 20 samples.

Results

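H3K27ac, a histone mark of active chromatin, was compared between neurons at day 1 and neurons at day 10 of differentiation over all 140641 regions of the deposited H3K27ac table. The comparison rests on 4 of the 20 libraries of the series, namely 2 from day 1 neurons and 2 from day 10 neurons. The cells were mouse cells with the strain label 159.2 and came from an in vitro series that runs from neuronal progenitors to neurons. Progenitors gave 2 further H3K27ac libraries in the same table. The labels give no genetic change and no drug for these stages, and they do not say whether the 2 libraries of a stage came from separate cultures. No region was selected. The table gives each region a number (peak 5937, for example), a width in bp and 1 log2 enrichment value per stage with both libraries merged, so no value carries a replicate error and no test between stages was possible. Coordinates and linked genes of the regions were not used here, so regions are described by width, level and place in the list.

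Acetylation of lysine 27 on histone H3 is placed by the acetyltransferases CBP and p300 and removed by histone deacetylases. It sits on nucleosomes that flank active promoters and active enhancers. In developing neurons the set of marked enhancers changes with maturation, as progenitor enhancers lose the mark and enhancers of synaptic and channel genes gain it. In a population of cells, a lower value can stand for fewer marked cells or for less mark per cell, and these cannot be told apart.

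The cell type label could be checked in RNA only at day 10, in the separate control cultures given DMSO, the solvent. Of 10 neuron markers 9 were matched by symbol, with a summed level of 123748 to 127939 normalised counts in the 2 libraries. Stmn2 and Tubb3, neuronal microtubule genes, were the most abundant of them. The 5 fibroblast markers summed to 97914 to 107165 normalised counts, led by the collagen gene Col3a1. The 5 astrocyte markers summed to 6399 to 7721 and the 6 progenitor markers to 7835 to 9412. Most of the progenitor sum came from Vim alone, with 6444 to 7732. Of 4 microglia markers the sum was 3.60 to 8.08, and P2ry12 was at 0. Of 3 pluripotency markers the sum was 4.79 to 9.88, all of it from Nanog, and Pou5f1 and Zfp42 were at 0. The part of non-neuronal cells in the H3K27ac values was not tested.

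Regions with strong H3K27ac at day 1 were lower at day 10, and regions weak at day 1 were higher, although regions with a low mean of both stages were slightly lower (-0.15). The upper end of the H3K27ac levels was lower in the older neurons, while the middle 50% was slightly wider, from 0.20 to 1.31 at day 10 and from 0.27 to 1.34 at day 1. The median level was 0.67 at day 1 and 0.63 at day 10 on the deposited log2 scale, where 0 means as many reads as the scaled reference. The top 1% of values began at 5.17 at day 1 and at 4.29 at day 10, and the highest values were 8.004 and 6.24. The lowest 1% of values ended at -0.42 at day 1 and at -0.61 at day 10. The SD over regions was 1.16 at day 1 and 1.05 at day 10. In progenitors the median was 0.66, the top 1% began at 5.62 and the SD was 1.25. On the deposited scale the middle of the distribution thus lay within 0.04 across the 3 stages, while the top lay lower at each later stage. Reads in the regions were also fewer at each later stage, with 18.0 M, 15.3 M and 11.2 M. Where the top 1% began was not computed at equal read totals.

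**Figure D1:**
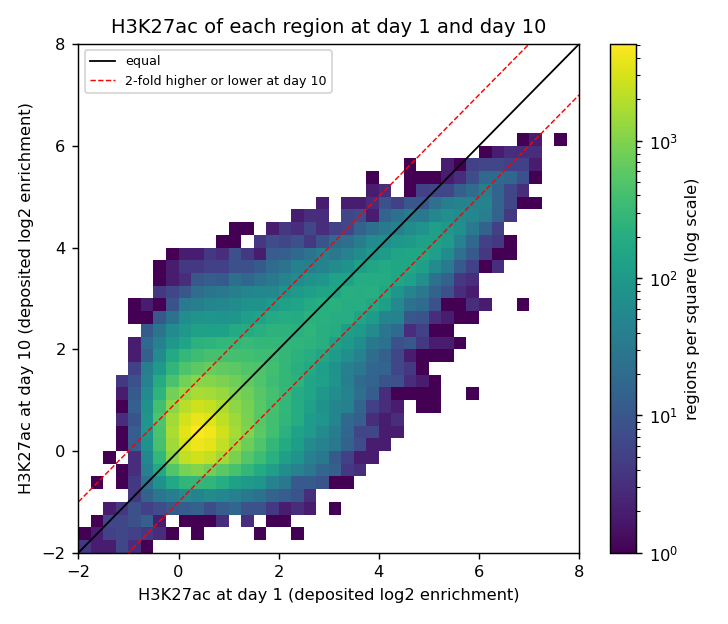
H3K27ac of each region at day 1 (horizontal axis) and day 10 (vertical axis), both as deposited log2 enrichment; colour gives the number of regions per square on a log scale, and 140552 of the 140641 regions fall inside the axes. The densest squares lie between 0 and 1 at both stages, a range that holds 35.1% of the regions, and above a day 1 level of about 5 nearly all lie under the line of equal levels.

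As deposited, the difference of day 10 minus day 1 had a median of -0.11 over all regions (0.13 when both stages were scaled to equal read totals), with a middle 50% from -0.62 to 0.42. With each column centred on its own median, which moves every difference by 0.04, the median was -0.07 and the middle 50% ran from -0.58 to 0.45. Of all regions, 54.9% differed by less than 1.5-fold after centring. As deposited, 12347 regions (8.78%) were at least 2-fold higher at day 10 and 18525 (13.2%) at least 2-fold lower. After centring, 13285 regions (9.45%) were at least 2-fold higher and 17064 (12.1%) at least 2-fold lower. At least 4-fold, 1518 were higher and 2407 lower after centring, and at least 8-fold, 79 and 211. The regions with higher values thus made up 43.8% of those past 2-fold, 38.7% past 4-fold and 27.2% past 8-fold.

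**Figure D2:**
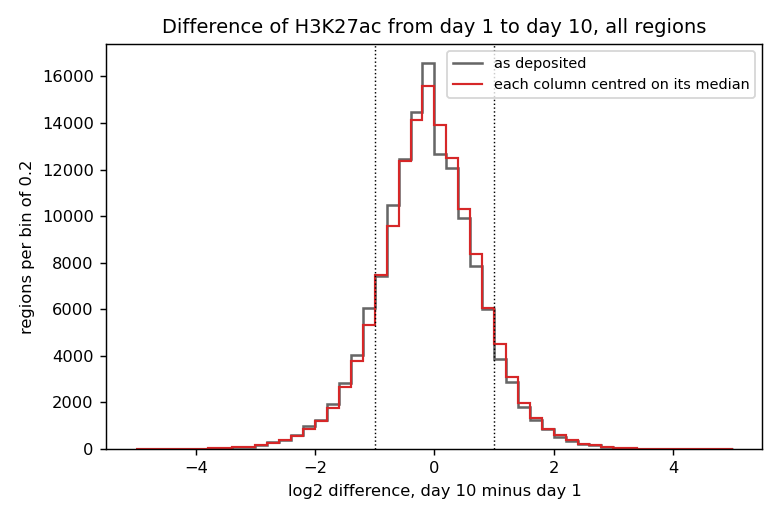
Number of regions per bin of 0.2 (vertical axis) against the log2 difference of day 10 minus day 1 (horizontal axis), as deposited (grey) and with each column centred on its median (red); dotted lines mark a 2-fold difference. The 2 outlines are shifted by 0.04 and the left tail is the longer one, with 2407 regions past 4-fold on the left and 1518 on the right after centring, whereas at equal read totals 9264 regions lie past 2-fold on the left and 18649 on the right.

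The split into higher and lower regions depended on the scale. The merged day 1 libraries held 15.3 M reads in the regions and the day 10 libraries 11.2 M, a ratio of 0.732. No label says if sequencing depth was equalised before merging. When both stages were brought to the same total of reads in regions, the median difference moved up by 0.20 to 0.13. On that scale 18649 regions were at least 2-fold higher and 9264 lower, so that 66.8% of them were higher, against 40.0% as deposited and 43.8% after centring. Centring on the column means gave 15191 higher and 14947 lower (50.4% higher), and quantile normalisation 14566 and 14149 (50.7%). All 9264 regions called lower at equal totals were also lower after centring, and 13283 of the 13285 regions called higher after centring were also higher at equal totals. In the following, differences are centred on the column medians, and the value at equal totals is given where its sign differs.

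Read numbers show how the marked sites were spread over levels. The median region had 24 reads at day 1 and 23 at day 10, the regions covered 60.9 Mb in all, and the mean density was 252 reads per kb at day 1 and 184 at day 10. The 10% of regions with the most reads held 68.8% of the reads at day 1 and 61.1% at day 10, and in progenitors 73.9%. The top 1% held 21.0% at day 1 and 15.8% at day 10, after 24.1% in progenitors. Reads at day 10 were fewer by 4.10 M over all regions, and by 4.38 M in the highest decile by day 1 level, so all other regions together had slightly more reads at day 10. That decile was chosen by its day 1 values, which favours such a split. The highest decile by day 10 level had 9.40 M reads at day 1 and 6.64 M at day 10. Outside that decile the other regions together also had fewer reads at day 10. How well the antibody enriched marked DNA at each stage cannot be told apart from the stage with merged values.

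Regions were ordered by their day 1 level and divided into deciles, 10 classes of nearly equal size, and the difference stepped down from the lowest to the highest class. In the highest decile by day 1 level (2.59 to 8.004), which had a median width of 930 bp, the median was 3.61 at day 1 and 3.06 at day 10, a centred difference of -0.76 with a middle 50% from -1.25 to -0.30. Of these 14063 regions, 5151 (36.6%) were at least 2-fold lower and 117 (0.832%) at least 2-fold higher, against 12.1% and 9.45% of all regions. Their density was 745 reads per kb at day 1 and 429 at day 10. In the lowest decile (up to 0.011) the median was -0.14 at day 1 and 0.48 at day 10, a centred difference of 0.68, and 31.6% were at least 2-fold higher and 0.176% lower. Their density was 39.0 reads per kb at day 1 and 116 at day 10. The deciles in between stepped down from 0.36 in the second to -0.64 in the ninth, and the sign turned between the fourth (0.04) and the fifth decile (-0.10), or between the fifth and the sixth at equal totals. Counting error alone gave a median SE of 0.10 for a single region in the highest decile and 0.23 in the lowest.

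The day 1 value enters both the class and the difference, so the 2 are tied by construction, and the part of error in that value was not tested. The progenitor level, which does not enter the difference, gave the same order over a smaller span. The highest decile by progenitor level had a centred difference of -0.67 and the lowest of 0.24, against -0.76 and 0.68 by day 1 level. In the highest progenitor decile the median level went from 3.91 in progenitors to 3.54 at day 1 and 2.98 at day 10, and 30.2% of its regions were at least 2-fold lower at day 10 than at day 1. In the lowest progenitor decile it went from -0.17 to 0.20 and 0.41. There 20.2% were at least 2-fold higher and 9.64% lower, against 9.45% and 12.1% of all regions. At equal totals the highest progenitor decile stood at -0.28 and each of the other 9 deciles above 0. Ordered by the mean of day 1 and day 10, the lowest decile had a difference of -0.15, the eighth of 0.06 and the highest of -0.53. The lower values of the strongest regions thus held in these 3 orderings. The higher values of the weakest regions held only when they were ordered by the day 1 or the progenitor level. Ordered by the day 10 level, which also enters the difference, the lowest decile had a difference of -0.75 and the ninth of 0.58. The highest had -0.23 after centring and 0.16 at equal totals, so the pattern depended on the stage used for ranking.

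**Figure D3:**
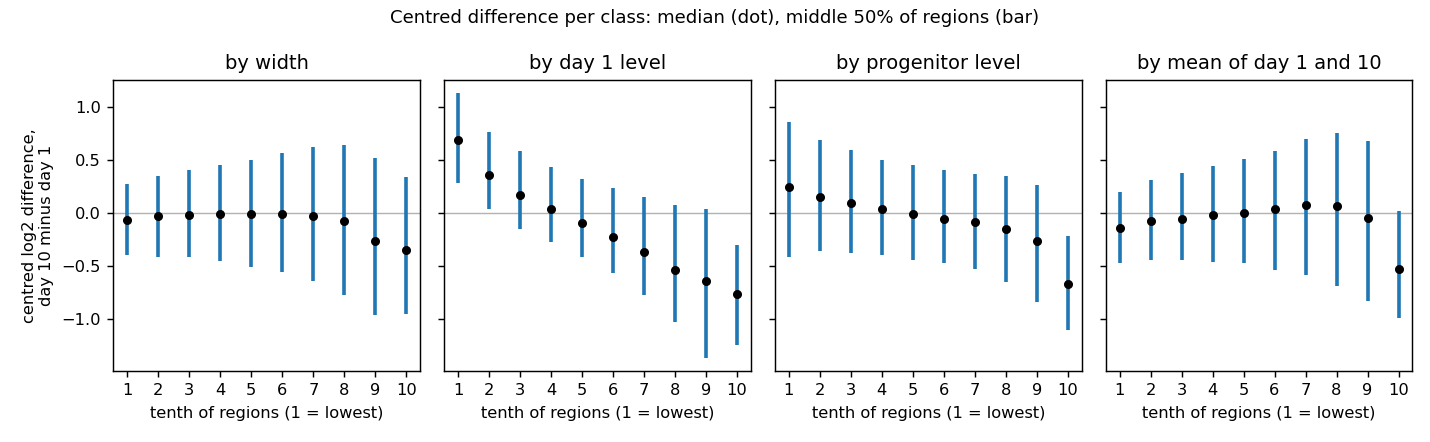
Centred log2 difference of day 10 minus day 1 (vertical axis) in deciles of the regions (horizontal axis) ordered by width, by day 1 level, by progenitor level and by the mean of day 1 and day 10; dots are medians and bars hold the middle 50% of regions. The highest decile is the lowest point in all 4 panels (-0.35, -0.76, -0.67 and -0.53), but for width its median is 0.03 at equal read totals.

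By width, the regions ran from 151 to 3320 bp with a median of 304 bp. Broader regions were more acetylated at both stages, with a median level of 0.32 at day 1 and 0.22 at day 10 in the narrowest decile (151 to 161 bp) and of 2.68 and 2.54 in the broadest (906 to 3320 bp). The rank correlation of width with level was 0.58 at day 1, 0.57 at day 10 and 0.53 in progenitors, over regions that share the same libraries. The rank correlation of width with the centred difference was -0.08. The centred difference was -0.07 in the narrowest decile, between -0.08 and -0.01 in the next 7 deciles, -0.27 in the ninth and -0.35 in the broadest, but at equal totals it was above 0 in all 10 deciles (0.05 in the narrowest and 0.03 in the broadest). The spread grew with width up to the ninth decile: the middle 50% ran from -0.39 to 0.27 in the narrowest, from -0.96 to 0.51 in the ninth and from -0.95 to 0.34 in the broadest decile. In the narrowest decile 2.06% were at least 2-fold higher and 3.46% lower. In the broadest decile the shares were 11.5% and 23.1%, against 9.45% and 12.1% of all regions. The narrowest regions had a median of 10 reads at day 1 and 8 at day 10, where the constant of 16 that the deposited values add to the reads holds differences down.

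Width and level together set the regions apart more than either alone. Regions were divided here into quintiles, 5 classes, by each measure. Among regions in the lowest quintile by day 1 level, the centred difference was 0.31 for the narrowest quintile and 1.70 for the broadest. The 999 broad regions with a low day 1 level went from a median of -0.02 to 1.60. Of them, 76.3% were at least 2-fold higher at day 10, against 9.45% of all regions. Here too the day 1 value enters both the class and the difference. Among regions in the highest quintile by day 1 level, the difference was -1.10 for the narrowest quintile and -0.64 for the broadest. The 18020 broad regions with a high day 1 level had medians of 2.98 and 2.63, and 32.5% were at least 2-fold lower, against 12.1% of all regions. At a matched day 1 level the broader quintile had the higher difference. The exception was between the narrowest quintile and the next in the highest level class (-1.10 and -1.11). Over all regions the broad ones stood lower after centring, and most of the broadest quintile lay in the highest class by day 1 level. Whether their day 1 level accounts for the lower difference was not tested. With quintiles by progenitor level the broadest regions had a difference of 0.75 in the lowest class and of -0.54 in the highest, and the narrowest 0.04 and -0.50. In that highest class the difference did not rise steadily with width, and the middle quintile by width stood highest at -0.40. Of the broadest regions in the lowest class by progenitor level, 43.3% were at least 2-fold higher and 16.6% lower.

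**Figure D4:**
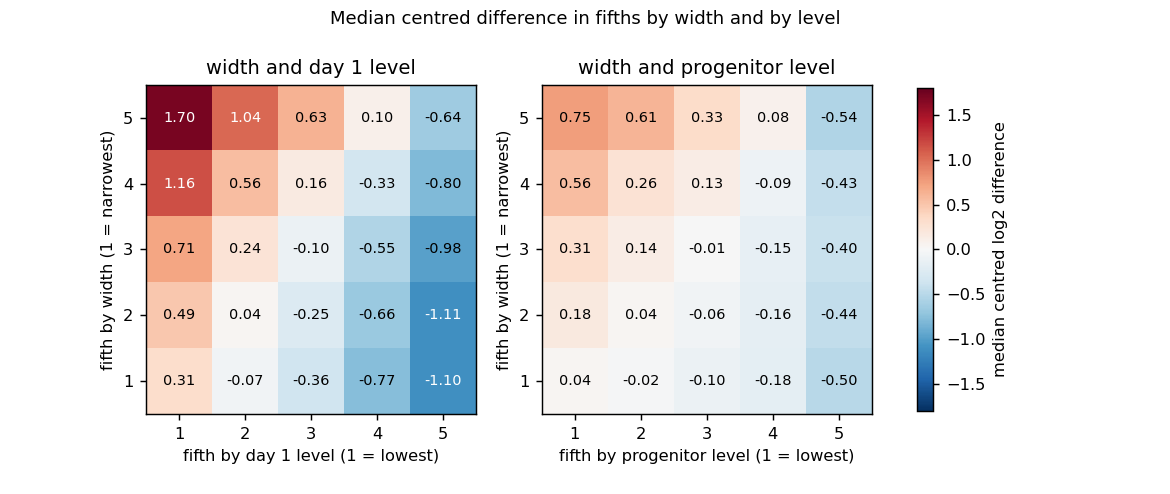
Median centred log2 difference of day 10 minus day 1 in 25 classes, made of quintiles by width (vertical axis) and quintiles by day 1 level (left) or progenitor level (right); red is higher and blue lower at day 10. The class of broad regions with a low day 1 level has the highest value, 1.70, and the narrow regions with a high day 1 level stand at -1.10.

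The 13285 regions at least 2-fold higher at day 10 had medians of 0.36 in progenitors, 0.20 at day 1 and 1.61 at day 10, so their progenitor level was low as well. Their median width was 422 bp and their median read numbers were 21, 17 and 74. They held 2.98% of all reads in regions at day 1 and 14.8% at day 10. The 17064 regions at least 2-fold lower had medians of 1.23 in progenitors, 1.88 at day 1 and 0.27 at day 10, with a median width of 499 bp and median read numbers of 62, 107 and 23. They held 35.3% of the reads at day 1 and 15.4% at day 10. A progenitor level of at least 1, or 2-fold over the reference, was seen in 18.2% of the higher and 56.7% of the lower regions, and in 34.0% of all. These sets were chosen by the difference itself, so their day 1 and day 10 values describe them and show nothing more.

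Many regions were above a given level at only one of the stages. At a level of at least 1, 29362 regions were marked at both stages, 19296 at day 1 only and 18515 at day 10 only. The regions marked at both had a median width of 757 bp, those marked at 1 stage only of 395 and 391 bp. Of the regions marked at day 1 only, 45.9% had reached that level in progenitors, and of those marked at day 10 only, 18.9%. At higher levels the numbers were uneven on the deposited scale. They were not counted at equal read totals, where the imbalance may differ. There the median difference in the highest decile by day 1 level was -0.37, against -0.80 as deposited. At a level of at least 3, 6804 regions were at that level at both stages, 3835 were at that level only at day 1 and 1536 only at day 10. At a level of at least 4 the numbers were 2118, 2983 and 275, and 87.5% of the 2983 had been at that level in progenitors too. At a level of at least 5 they were 230, 1580 and 15.

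The ranking of the strongest regions was partly kept. Of the 1406 regions in the top 1% at day 1, 886 (63.0%) were in the top 1% at day 10, and of the 14064 in the top 10%, 10145 (72.1%). From progenitors to day 1, a pair that shares the day 1 column, 74.9% and 79.2% were kept. In the top 1% at day 1 the median level went from 6.03 in progenitors to 5.59 at day 1 and 4.48 at day 10. Of these regions 897 (63.8%) were at least 2-fold lower at day 10, against 12.1% of all regions, and none was 2-fold higher, against 9.45%. After centring, 4 were higher at all (38 at equal totals, where 372 were at least 2-fold lower). These regions were chosen by their day 1 values, which favours lower values at day 10. Of the top 1% at day 10, 411 were at least 2-fold lower and 55 higher. Of the top 10% at day 10, the numbers were 2361 and 2347. Over all regions the rank correlation of day 1 with day 10 levels was 0.42, and 0.64 between progenitors and day 1.

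The 5 largest differences upward among the 42431 regions with at least 100 reads in both stages together were in broad regions that were near or under the reference level at day 1. Peak 5937 (830 bp) had 41 reads in progenitors, 19 at day 1 and 548 at day 10, and its level went from -0.05 to 3.96. The ratio of its reads was 28.8 (95% exact interval 18.3 to 48.3, counting error only, before any scaling). Peak 97726 (1365 bp) had 84, 37 and 725 reads. Peak 126878 (873 bp) had 29, 14 and 396 reads, a ratio of 28.3 (16.7 to 52.2). All 5 were low in progenitors too, with levels between -0.42 and 0.76. Peak 80523 (779 bp) had 19, 20 and 475 reads, and peak 23159 (1266 bp) had 93, 44 and 795.

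The 5 largest differences downward were in regions with levels of 3.74 to 5.82 at day 1 and of -0.41 to 1.13 at day 10. Peak 79797 (1990 bp) had 998 reads in progenitors, 2490 at day 1 and 81 at day 10, and its level went from 5.82 to 1.13. Day 1 had 30.7 times the reads of day 10 (95% exact interval 24.6 to 38.8). Peak 99870 (2008 bp) had 3409, 1844 and 77 reads, and peak 72870 (1187 bp) had 2866, 1589 and 73. These 2 regions were highest in progenitors. Peak 32262 (822 bp) had 135, 696 and 24 reads, and peak 41172 (638 bp) had 116, 470 and 12, so both were highest at day 1. The downward set thus held regions with and without a maximum at day 1, while the upward set held none that was strong before day 10. Both sets were picked by the size of the difference, which favours low day 1 levels in the upward set. Progenitor levels went with day 1 levels over all regions (rank correlation 0.64). The contrast between the sets therefore only describes the regions picked, and it was not tested.

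**Figure D5:**
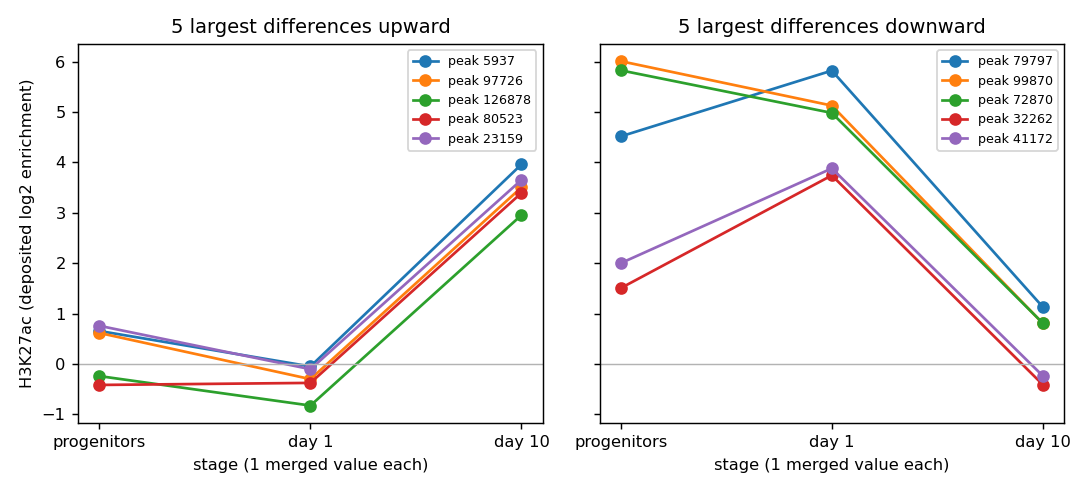
Deposited log2 enrichment (vertical axis) at the 3 stages (horizontal axis) for the 5 regions with the largest upward (left) and downward (right) centred difference from day 1 to day 10; each point is 1 merged value of 2 libraries, and 0 is the reference level. All 5 on the left lie under 1 until day 1 and between 2.96 and 3.96 at day 10, and on the right 2 regions lie below 0 at day 10.

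The strongest regions kept a high level with fewer reads. Peak 82942 (1033 bp) had the highest level at day 1, 8.004, and stood at 5.92 at day 10, with 6787 and 1589 reads. Peak 96797 (1815 bp), which was among the top 3 at both stages, had levels of 7.67 and 6.11 with 6039 and 2032 reads. Peak 59549 (2082 bp), the highest at day 10, had levels of 6.92 and 6.24 with 7292 and 4560 reads. The 3 broadest regions differed among themselves. Peak 70003 (3320 bp) had 3109 and 2068 reads and a centred difference of -0.55, and peak 109707 (3187 bp) had 4906 and 2668 reads and one of -0.84. Peak 41962 (3229 bp) had 1996 and 2084 reads and a centred difference of 0.10. The 95% exact interval of their ratio before any scaling, 0.981 to 1.11, includes equal numbers. It does not show an unchanged region, since day 10 had 0.732 times the day 1 reads over all regions.

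Regions next to each other in the list had similar differences. Consecutive regions had a correlation of 0.50 in the difference over 140640 pairs, which share the same libraries, against 0.36 for the day 1 level, 0.41 for the day 10 level and 0.08 for width. It was 0.33 at 2 places apart, 0.15 at 10 places, 0.06 at 50 and -0.00042 at 500. After a region at least 2-fold higher the next one was also at least 2-fold higher in 34.5% of cases, against 9.45% of all regions, and 2-fold lower in 2.41%. After a region at least 2-fold lower the next one was also lower in 40.0%, against 12.1% of all. Of the lower regions 37.9% stood in unbroken runs of 3 or more, and of the higher regions 27.6%. No label says what the order of the list stands for.

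The longest runs were singled out after their values were seen. The longest downward run, peaks 58302 to 58327, held 26 regions with 10888 bp in all, and their summed reads were 1318 in progenitors, 4048 at day 1 and 416 at day 10. The 26 centred differences lay between -3.44 and -1.10. The next, peaks 44348 to 44365, held 18 regions with 1037, 3089 and 403 reads. The third, peaks 38817 to 38830, held 14 regions with 5180, 3200 and 366 reads, and the median level of its regions was 2.50 in progenitors, 2.51 at day 1 and -0.07 at day 10. The longest upward run, peaks 129426 to 129438, held 13 regions with 321, 477 and 2678 reads. Another, peaks 134275 to 134285, held 11 regions with 263, 249 and 1666 reads.

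Beside the earlier step of the same series, the later one had more regions past 2-fold. From progenitors to day 1, which shares the day 1 values, 6.55% of regions were at least 2-fold higher and 5.57% lower after centring (6.74% and 5.46% as deposited), with an SD of the difference of 0.66 against 0.84 from day 1 to day 10. From progenitors to day 10, which shares columns with both steps, the shares were 10.3% and 14.2% after centring and 9.76% and 15% as deposited. FAIRE-seq, which sequences DNA free of nucleosomes and so reports open chromatin, gave values for 62877 other regions at the same stages. There the deposited difference from day 1 to day 10 had a median of -0.40, and 0.0461% of regions were at least 2-fold higher and 8.41% lower. Centring moved every FAIRE difference by 0.34, and after centring 0.464% were at least 2-fold higher and 1.58% lower, with an SD of 0.42. The highest decile of FAIRE regions by day 1 level had a centred difference of -0.57 and the lowest of 0.46, against -0.76 and 0.68 for H3K27ac. The 2 tables were made separately and have different regions and depths, and with merged values the difference between them was not tested.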

How the data were processed

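H3K27ac ChIP-seq of 2 libraries per stage was used, with FAIRE-seq and the control RNA libraries at 2 points. The deposited log2 values were made by the authors as merged enrichment, 1 per region and stage, per the file headers. The RNA values were a signal deposited as normalised read counts, per the file name. Per the submitters' processing notes the build was mm9 and the tools TopHat, Bowtie, HTSeq and DESeq; no source names their roles, the peak caller or the reference. The deposited widths are in bp.

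Each log2 value equalled log2 of (reads + 16) over (0.807 × whole reference reads + 16), with 1 reference for all columns. Reads and reference were recovered for 140634 of 140641 regions within 1e-06 of a whole number, checked by rebuilding the deposited values and tested on simulated data. Depth in regions was 18.0 M reads in progenitors, 15.3 M at day 1 and 11.2 M at day 10. The interval of a read ratio is the exact binomial one at 95%, and SEs of counting come from the same reads; both cover counting error only.

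Groups came from the sample titles. A test was planned only for values per library. Each stage had 1 merged value, so the size of a difference and counts past 2-fold are given with no p. Named regions are, among regions with at least 100 reads at day 1 and day 10 together, the 5 largest differences each way, and the 3 highest at day 1, at day 10 and in width. Classes are deciles or quintiles of all regions. The regions, classes and marker lists were chosen with earlier results of these data known. Alternatives were other scalings, a minimum of 50 reads, log2(reads + 1), other folds and other classes. Glutamatergic markers summed to 3979 to 3986 normalised counts, GABAergic markers to 7253 to 8716 and oligodendrocyte lineage markers to 790 to 893. Work was done in Python 3.11.15 with numpy 2.4.6, pandas 2.3.3 and scipy 1.17.1.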

Additional observations from a re-analysis of the deposited data

How the results depend on the processing

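No paired analysis was possible because each stage has 1 merged value, and for the same reason no replicate could be left out. Results moved with every kind of choice except the removal of regions with over 200 reference reads, which was chosen after seeing the data. The median deposited difference of -0.11 was -0.18 among regions with at least 50 reads and -0.19 with log2(reads + 1). With log2(reads + 1) the regions at least 2-fold higher and lower numbered 26748 and 37413 as deposited and 27699 and 34580 after centring. At 1.5-fold they were 26368 and 37195 as deposited and 28277 and 35091 after centring, and at 4-fold 1368 and 2613, and 1518 and 2407. At equal read totals the lower regions numbered 9264.

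In the narrowest decile the centred difference of -0.07 turned to 0.0039 when centred on the mean, 0.0533 at equal totals and 0.0056 when centred on the median difference (added after seeing the data). It was -0.0225 with quantile normalisation, -0.21 with at least 50 reads, -0.20 with log2(reads + 1) and -0.0545 in quintiles. In the broadest decile -0.35 turned to 0.0285 at equal totals. It was 0 with quantile normalisation, -0.28 when centred on the mean or the median difference and -0.32 in quintiles. The lowest decile by day 1 level (0.68) had 1.27 with at least 50 reads, 0.76 at equal totals and when centred on the mean or the median difference, 0.74 with quantile normalisation, 1.499 with log2(reads + 1) and 0.52 in quintiles, 0.24 by progenitor level and -0.15 by the mean of day 1 and day 10. The highest decile (-0.76) stayed below 0 under all 10 alternatives, with -0.88 at 50 reads, -0.69 when centred on the mean or the median difference, -0.37 at equal totals, -0.29 with quantile normalisation, -0.72 in quintiles, -0.53 by the mean of both stages and -0.67 by progenitor level. Ordering by the day 10 level was not among these alternatives. It gave the highest decile -0.23 after centring and 0.16 at equal totals. The cause of these shifts was not tested. A median region with 24 reads at day 1 and 23 at day 10 had a counting SE of 0.23, so single weak regions cannot be ranked at this depth.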

Other observations

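A small set of regions was dominated by the reference. In 112 regions (0.0796%) the recovered reference exceeded 200 reads, with a median of 544 and a maximum of 26110, against a median of 12 over all regions. These 112 regions held 9.93% of all reference reads, but 0.230% of the day 1 and 0.199% of the day 10 reads. Their median level was -1.55 in progenitors, -1.76 at day 1 and -2.50 at day 10. Their median centred difference was -0.56, against -0.07 over all regions. After centring, 13 of them (11.6%) were at least 2-fold lower at day 10, a share close to the 12.1% of all regions. Of the 112, 0 were at least 2-fold higher, against 9.45% of all regions. In 2730 regions (1.94%) the level was below 0 at both day 1 and day 10, although all regions of the table are named as potential peaks. Their median width was 190 bp, and their median level in progenitors was 0.23, above the reference.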
